A study of Drosophila melanogaster with 66 samples.

Results

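The proteasome subunit genes of Drosophila melanogaster were examined in 25 lists of bound or acetylated regions from staged, sexed embryos. They were taken by symbol from a dm6 gene table as every gene named Prosalpha, Prosbeta, Rpn or Rpt with a number. The rule found 48 genes of 13842 protein-coding genes on X, 2L, 2R, 3L and 3R. Of these, 32 encode the general subunits: 7 of the alpha ring, 7 of the beta ring, 10 of the base and 8 of the lid. The other 16 are paralogs whose symbol ends in R or T, most of them known as genes of the male germ line. Of the general genes 4 lie on X (Rpt3, Rpt4, Rpt6 and Prosalpha4) and 28 on autosomes, and of the paralogs 2 lie on X (Rpn13R and Prosbeta2R1) and 14 on autosomes.

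The proteasome degrades proteins marked with ubiquitin. Its core particle is a barrel in which rings of beta subunits, some of them proteolytic, lie between rings of gating alpha subunits. The regulatory particle on its end has a base of ATPases (Rpt) that unfold the substrate and a lid that helps to remove ubiquitin. Every cell of the embryo uses it, and in the male germ line several general subunits are replaced by paralogs. CLAMP, a DNA-binding protein with zinc fingers, recognises GA-rich sites on all chromosomes and helps to bring the dosage compensation complex to the male X. MSL3 is a chromodomain subunit of that complex, and acetylation of histone H4 at lysine 16 (H4K16ac) is the mark its acetyltransferase MOF makes. MOF also acts outside that complex, at active genes on all chromosomes of both sexes.

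The series holds 66 chromatin immunoprecipitation samples from female and male embryos at nuclear cycles 11, 12, 13 and 14 and at 2-4 h. Mothers of all embryos were yw; attP2{PCNA-EGFP} virgin females, so every embryo carried the maternal PCNA-EGFP reporter by which nuclear cycles were read. Fathers of female embryos were SPSD/SD72 males that carried + over the chromosome Dp(2:y) CB25-4 with the alleles y+ and Rsp[s]B[s]. Fathers of male embryos were SPSD/SD72 males with a Y and the chromosome 19-3, which bore yw and Rsp[s]-B[s]. Both kinds of father pass on sperm of mostly 1 sex by meiotic drive, so the sexes differ in their paternal chromosomes as well as in sex. At cycles 11 to 14, 200 hand-sorted embryos were pooled per sample, so each list averages over all cells of many embryos. The label embryo could not be checked against marker genes, since peak lists hold no expression.

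Each combination of antibody, sex and stage gave a single list, for CLAMP and H4K16ac in both sexes and for MSL3 in males. No difference below therefore has a replicate check, and no test could be made. Lists differed widely in length. CLAMP lists held 5462, 1811, 3916, 529 and 10435 regions in females from cycle 11 to 2-4 h, and 133, 604, 4959, 8393 and 10466 in males. H4K16ac lists held between 4516 and 8087 regions except the male cycle 11 list, which held 1201. MSL3 lists held 40, 33, 15149, 1434 and 468 regions. A gene was counted as occupied if a region overlapped its body or the 1 kb on either side by at least 1 bp. Each count is given beside the share of all protein-coding genes occupied in the same list, which moves with the list's length. The peak caller's fold over local background has no scaling between lists, so folds are the peak caller's own values, and they order regions within a list only. A percentile is the rank of a region's fold among all regions of its list. Where a gene had several regions, the one with the highest fold was taken. Percentiles were not computed for other genes as a set. Folds of different lists are printed side by side without being compared.

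CLAMP lay at nearly every general subunit gene at 2-4 h in both sexes, and at far fewer of them in the earlier lists. At 2-4 h 31 of the 32 general genes were occupied in females, where 60.7% of protein-coding genes were, and the same number in males, where 59.5% were. The gene left out was Prosalpha1 each time, an alpha ring subunit. In the female lists of cycles 11, 12, 13 and 14, CLAMP occupied 17, 3, 14 and 1 of the 32, beside backgrounds of 30.9%, 10.7%, 22% and 3.92%. In the male lists of those cycles it occupied 0, 1, 17 and 7, beside 1.05%, 3.97%, 27.8% and 31.2%. The general genes thus stood above the background share in both 2-4 h lists, in females at cycles 11 and 13 and in males at cycle 13, and below it in the other 5 lists. With the paralogs included, 37 of 48 genes were occupied in females and 36 in males at 2-4 h. With regions over the gene body alone, 34 and 33 of the 48 were occupied at 2-4 h, beside 51.5% and 49% of protein-coding genes. In the earlier lists that count left 11 and 8 genes in females at cycles 11 and 13 (beside 22.7% and 16.1%) and 10 in males at cycle 13 (20.2%), all of them general subunits, or 34.4%, 25% and 31.2% of the 32.

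**Figure D1:**
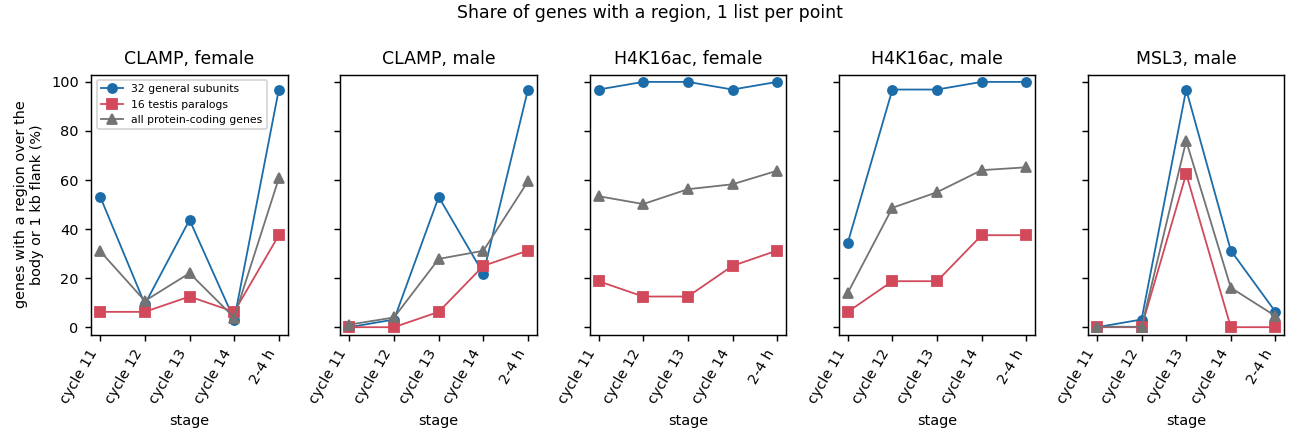
Share of genes (percent, vertical axis) with a region over the body or the 1 kb flanks, by stage, for each antibody and sex, with 1 list per point and no error bars. Blue circles are the 32 general subunits, red squares the 16 testis paralogs and grey triangles all 13842 protein-coding genes. General subunits lie above the grey line in all 10 H4K16ac lists and at 2-4 h for CLAMP, and the paralogs lie below it in every H4K16ac list.

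The members are short genes, with a median of 1390 bp for the general subunits and 1282 bp for the paralogs against 2151 bp for protein-coding genes. The 7956 protein-coding genes within the members' length range of 881 to 4500 bp are called genes of like length here. They share that range but were not matched to the members gene by gene, and their median length was not computed. CLAMP occupied 58.9% of them in females and 57.2% in males at 2-4 h. At cycle 11 in females it occupied 25.04% of them, and at cycle 13 it occupied 15.8% in females and 21.5% in males. These shares are below those over all protein-coding genes. In the female lists of cycles 12 and 14 and the male list of cycle 12 they were 5.995%, 2.12% and 1.62%, below the 9.38%, 3.12% and 3.12% of general subunits, which are 3, 1 and 1 genes. In males at cycle 14 the 7 general genes were 21.9%, beside 22.3% of genes of like length, and in males at cycle 11 none was occupied, beside 0.629%.

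Within the core particle, the alpha ring gene Prosalpha3 had CLAMP in the most lists. Its folds in the female lists of cycles 11, 12, 13 and 2-4 h were 7.21, 3.37, 8.79 and 8.55, with no region at cycle 14. Its folds in the male lists of cycles 12, 13, 14 and 2-4 h were 4.96, 5.39, 6.10 and 9.25, with no region at cycle 11. Within those lists it ranked between percentiles 20.5 and 89.7. These 8 regions were not centred on Prosalpha3: each summit lay 932 to 1014 bp beyond the end of the gene, over the body of CG10543. Prosalpha5 and Prosalpha6, also alpha ring subunits, had CLAMP in 6 lists each. At Prosalpha5 the strongest region overlapped the body only in the female 2-4 h list. In its other occupied lists the summit of that region lay 909 to 923 bp outside the gene. Prosalpha2 and Prosalpha7 had CLAMP in the 2-4 h lists alone, at percentiles of 22.4 and 72.9 in females and 15.2 and 72.2 in males.

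The beta ring holds the proteolytic sites. Prosbeta1, the caspase-like subunit, had CLAMP in 6 lists, with folds of 4.34, 3.73, 5.65 and 7.16 in females at cycles 11, 12, 13 and 2-4 h, and 3.09 and 10.03 in males at cycle 13 and 2-4 h. Prosbeta5, the chymotrypsin-like subunit, had it in 5 lists, at percentiles of 74.4 in females and 88.6 in males at 2-4 h. For both genes the summits lay close to 1 end of the gene, at 58 to 78 bp for Prosbeta1 and 25 to 55 bp for Prosbeta5, in every occupied list. Prosbeta2, the trypsin-like subunit, was occupied at 2-4 h alone, at percentiles of 50.04 in females and 22.9 in males. The catalytic subunits therefore did not share a pattern: at cycle 11 in females CLAMP lay at Prosbeta1 and Prosbeta5 and at none of the other 5 beta ring genes.

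Of the base genes, 7 of 10 were occupied in females at cycle 11 and 6 of 10 in males at cycle 13. The unoccupied ones in that female list were the ATPases Rpt1, Rpt2 and Rpt5, which had CLAMP at 2-4 h alone. Rpn13, a ubiquitin receptor of the base, had CLAMP in 6 lists, at a percentile of 89.6 in females at cycle 11 but 36.2 at 2-4 h. Rpn1 and Rpn2, the large scaffolds of the base, and Rpn10, another ubiquitin receptor, had it in 5 lists each.

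Rpn8, a lid subunit that pairs with the deubiquitinase Rpn11, carried the strongest CLAMP region of the whole group at 2-4 h. Its folds were 5.44, 9.26, 4.25 and 10.7 in females at cycles 11, 13, 14 and 2-4 h, and 5.37, 3.64 and 10.7 in males at cycles 13, 14 and 2-4 h. Its percentile was 95.1 in females and 91.3 in males at 2-4 h, so it was the only general subunit in the top 10% of either 2-4 h list. Unlike the summits at Prosbeta1 and Prosbeta5, its summits lay inside the body, 2019 to 2093 bp from the nearer end, where the gene overlaps Slik. Rpn6, a lid subunit that contacts the core particle, was at percentiles of 80.2 and 82.6. That was below core particle genes such as Prosalpha3 (89.6 and 87.4) and Prosbeta1 (83.3 and 89.7). Rpn11 itself was at 31.8 and 32.2, with CLAMP at 2-4 h alone.

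The other genes with high folds at 2-4 h were Rpn7 (6.92), Prosalpha5 (6.83) and Prosbeta7 (6.75) in males, and Prosalpha6 (6.97), Rpt6 (6.68), Rpt5 (6.26) and Rpt3 (6.16) in females. The median percentile of the occupied general genes was 66.9 in females and 63.5 in males at 2-4 h, 57.0 in females at cycle 11 and 44.7 in males at cycle 13. CLAMP at these genes was thus frequent and of middling rank, apart from the few genes above.

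**Figure D2:**
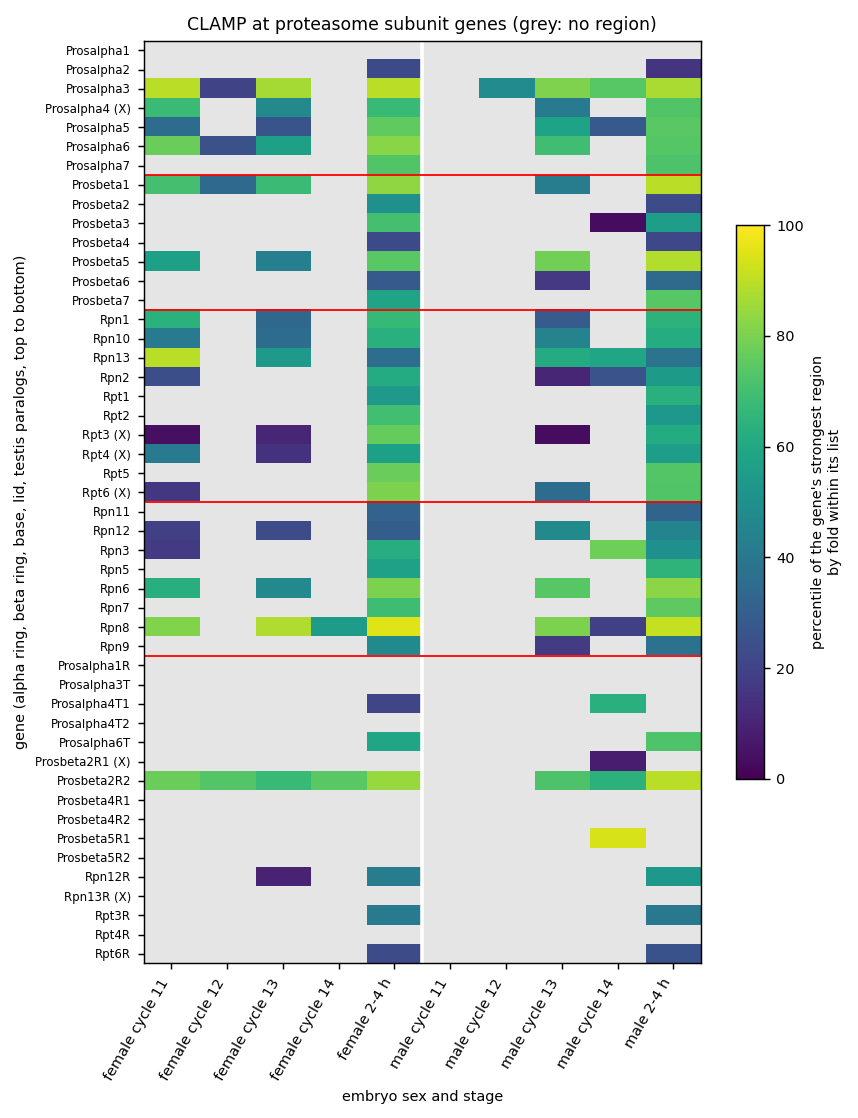
CLAMP at the 48 proteasome genes (rows, grouped by alpha ring, beta ring, base, lid and testis paralogs between red lines) in 10 lists (columns, females left and males right of the white line). Colour is the percentile of the gene's strongest region by fold within its list, and grey means no region. The 2-4 h columns are filled for 31 of 32 general subunits, and Prosalpha3 has the most filled cells among them with 8.

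Across lists, 14 of 32 general genes had CLAMP in at least 5 of the 10 lists, where 22.6% of protein-coding genes and 15.7% of those of like length did. That limit of 5 was chosen after the values were seen. With regions over the body alone 6 of the 32 reached it, or 18.8%, beside 16% of protein-coding genes and 8.57% of those of like length. Besides Prosalpha3, Prosalpha5, Prosalpha6, Prosbeta1, Prosbeta5, Rpn1, Rpn2, Rpn6, Rpn8, Rpn10 and Rpn13, the 14 were Prosalpha4, Rpt3 and Rpn12. Another 11 had it in the pair of 2-4 h lists and nowhere else, and the share of protein-coding genes with that pattern was not computed.

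The regions at general genes recurred at the same places, as most CLAMP regions did. The strongest region at a general gene overlapped a region of the male 2-4 h list in 17 of 17 genes of the female cycle 11 list, 14 of 14 of the female and 17 of 17 of the male cycle 13 list, and 31 of 31 of the female 2-4 h list. Over all protein-coding genes occupied in those lists the shares were 98.7%, 99.05%, 98.5% and 95.8%. The male cycle 14 list stood apart. There 4 of the 7 regions at general genes had an overlap, or 57.1%, beside 29.6% of the occupied protein-coding genes. The 3 without an overlap were at Prosbeta3, Rpn13 and Rpn2. None of the 7 summits lay within 250 bp of a gene end. In the 2-4 h lists 21 of 31 summits did so in either sex. Summit distance was not computed for other protein-coding genes. Although that male cycle 14 list was among the longest, it lacked CLAMP at 24 of the general genes that carried it at 2-4 h. The difference was shared with the rest of the list. CLAMP occupied 31.2% of protein-coding genes in it and 59.5% in the male 2-4 h list, and 23.9% of all its regions overlapped a region of the latter. Without the male cycle 14 list, 14 of the 48 genes had CLAMP in at least 5 lists, where 15 had it with all lists.

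Most of these regions were shared with a neighbour. The strongest region at 2-4 h overlapped the body of another gene at 26 of 31 general genes in females and 25 of 31 in males. It overlapped the body of the subunit gene itself at 26 of 31 in both. The like shares over all protein-coding genes were not computed, so these counts describe the members alone. The gene table gives no strand, so a gene's start could not be told from its end. By coordinate, the summit was nearer the same end of the gene in every occupied list for 28 of the 31 general genes with CLAMP in at least 2 lists, the exceptions being Rpn2, Rpn10 and Rpn13. Among protein-coding genes of like length the share was 84.5%. The promoter that a shared region belongs to cannot be told apart by position.

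H4K16ac lay at almost all general subunit genes from the earliest stage in females. In females 31, 32, 32, 31 and 32 of 32 were occupied at cycles 11, 12, 13, 14 and 2-4 h, where the background was 53.4%, 50.2%, 56.2%, 58.3% and 63.8%. In males 11, 31, 31, 32 and 32 were, where it was 14%, 48.7%, 55%, 64% and 65.2%. The only list with fewer than 31 was the short male cycle 11 list. At many of these genes the strongest region also overlapped the body of another gene. In females that held for 25, 30, 30, 26 and 29 of the occupied general genes from cycle 11 to 2-4 h. In males it held for 6, 27, 24, 27 and 29. The like shares over all protein-coding genes were not computed. In at least 9 of the 10 lists (a limit chosen after the values were seen) 29 of 32 general genes were occupied, against 39.6% of protein-coding genes and 42.9% of those of like length. The 3 others were Prosalpha1 with 7 lists, and Prosalpha5 and the lid gene Rpn5 with 8 each. With regions of −log10 q of at least 5 alone, the male cycle 13 list held 9 of the 48 members beside 21.9% of protein-coding genes, and the female cycle 11 list 11 beside 7.72%.

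In the male cycle 11 list the occupied genes fell unevenly over the subcomplexes. Its 11 general genes were 6 of the base (Rpn1, Rpn2, Rpn13, Rpt2, Rpt3 and Rpt4), 4 of the lid (Rpn3, Rpn6, Rpn8 and Rpn12), 1 of the alpha ring (Prosalpha2) and 0 of the 7 beta ring genes. Those 11 are the genes with H4K16ac in all 10 lists. The shares occupied were 60% of base, 50% of lid, 14.3% of alpha ring and 0% of beta ring genes, beside 14% of protein-coding genes. The alpha ring was thus near the background. With regions of −log10 q of at least 5 alone, 1 of the 48 members was left in this list, beside 0.636%. Base and lid genes are longer, with medians of 1717 and 1984 bp, than alpha and beta ring genes, with 1219 and 1019 bp, and the part of length in this split was not tested.

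By rank, the strongest H4K16ac region at general genes lay in the upper part of most lists. The median percentile by fold was between 70.6 and 87.3 in all 5 female lists. It was 72.0, 82.5 and 76.2 in the male cycle 12, cycle 14 and 2-4 h lists. The rank of the strongest region at other occupied genes was not computed, so whether these ranks are particular to the general genes was not tested. For general genes in the male cycle 11 and 13 lists the median percentile was 45.0 and 53.2. Rpn3, a lid subunit, was in the upper end of many lists, at percentiles of 99.3, 99.5, 98.95 and 94.0 in females at cycles 11 to 14 and 75.1 at 2-4 h. In males it was at 94.6, 83.6, 99.3, 95.6 and 80.8 from cycle 11 to 2-4 h.

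The share of each gene body under H4K16ac regions was large for genes of this kind. At least 50% of the body was covered in 18, 23, 21, 17 and 12 of the 32 general genes in females from cycle 11 to 2-4 h, and in 0, 19, 17, 23 and 16 in males. Among protein-coding genes the shares were 12.7%, 10.3%, 17.9%, 16.1% and 11.5% in females and 0.535%, 8.55%, 9.52%, 24.4% and 16% in males. Among those of like length they were 15.3%, 13.3%, 24.9%, 21.2% and 13.9% in females and 0.629%, 10.7%, 12.4%, 31.9% and 20.3% in males. The median cover of general genes was 56.7%, 57.3%, 64.7%, 54.1% and 44.4% in females and 0%, 60.6%, 51.5%, 80.5% and 50.1% in males, where that of all protein-coding genes was at most 8.74% in any of the 10 lists and that of genes of like length at most 22.8%. With regions of −log10 q of at least 5 alone, 4 genes were covered by at least 50% in females at cycle 11, in place of 18, and 4 in males at cycle 13, in place of 17, beside 1.05% and 4.18% of protein-coding genes.

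Cover at many genes moved widely between lists, as at Prosalpha5, which ranged from 0% to 100%, while a few genes held one level in most lists. Prosalpha6 and Prosalpha7 were covered in full in all lists but the male cycle 11 list, where both were at 0%. At the other end the long base genes Rpn1 and Rpn2 were never covered by more than 34.3% and 26.7%. Rpn2 had 14.4%, 17.8%, 18.6%, 17.9% and 12.3% in females and 0%, 17.0%, 26.7%, 15.7% and 11.0% in males. Where the mark reached a single end of the gene in at least 2 lists, it was the same end each time for 17 of 22 general genes, or 77.3%, beside 85.7% of such protein-coding genes of like length. The exceptions were Rpt3, Prosalpha4, Rpt6, Rpn11 and Rpn5. Taking the more frequent end for each mark, H4K16ac and the CLAMP summits were at the same end in 23 of 26 general genes, or 88.5%, beside 82.9%, and at different ends in Prosalpha4, Rpn3 and Rpn13.

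**Figure D3:**
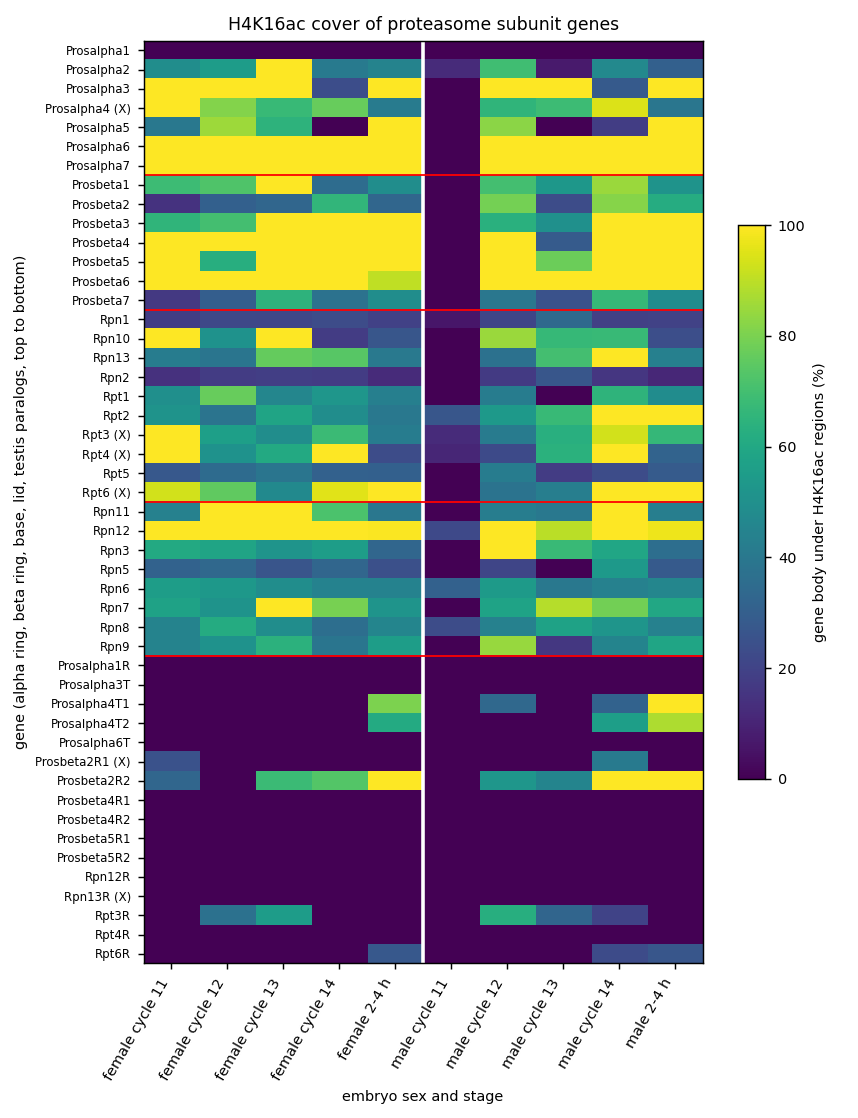
Share of each gene body under H4K16ac regions (colour, percent, 0 to 100) for the 48 proteasome genes (rows, in the order alpha ring, beta ring, base, lid, testis paralogs between red lines) in 10 lists (columns, females left and males right of the white line). Most general subunits are covered in part or in full outside the male cycle 11 list, Prosalpha1 is at 0 throughout, and Prosbeta2R2 is the paralog covered in the most lists.

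The male lists covered more of the general genes than the female lists at cycle 14 and the female lists more at cycle 13. At cycle 14 cover was higher in males for 18 general genes, higher in females for 5 and equal for 9. Of the protein-coding genes it was higher in males for 6224 and in females for 1331 at that stage, so the lean was shared with the rest of the list. At cycle 13 it was higher in males for 8 and in females for 19, beside 2669 and 5172 protein-coding genes. At 2-4 h it was higher in males for 15 and in females for 8, beside 4875 and 2755. At cycle 12 the counts were 11 and 14, beside 2248 and 3716. At cycle 11, against the short male list, it was higher in females for 31 of 32, beside 6080 protein-coding genes higher in females and 191 in males. By these counts the general genes leaned the way of all genes at each stage. At cycle 12 that lean rested on the 4 X-linked genes, all of them higher in females. The 28 autosomal general genes were then higher in males for 11 and in females for 10, beside 2103 and 2766 autosomal protein-coding genes.

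Among the general genes, the largest gain in males at cycle 14 was at the ATPase gene Rpt2, from 49.0% in females to 100% in males. Next came Rpn10 (17.7% to 67.5%), Prosbeta1 (35.4% to 84.9%) and Prosbeta7 (37.6% to 67.1%). All 4 are autosomal. Among the paralogs, Prosalpha4T2 went from 0% to 55.9%, the X-linked Prosbeta2R1 from 0% to 40.7% and Prosalpha4T1 from 0% to 31.4%. Rpt5, Rpn1, Rpn2 and Rpn7 were lower in males by small amounts, Rpt5 the most with 31.0% in females and 23.2% in males. At 2-4 h Rpt2 again led the general genes, with 40.2% in females and 100% in males. It was ahead of Prosbeta2 (32.9% and 62.1%), Rpt3 (41.9% and 66.5%) and Prosbeta6 (90.3% and 100%). The paralogs Prosalpha4T2 (61.0% and 87.8%) and Prosalpha4T1 (80.4% and 100%) were also higher in males. Cover was lower in males there for Prosalpha2 (44.7% and 30.7%), Rpn10 (26.7% and 24.2%), Prosalpha4 (41.6% and 39.1%) and Rpn12 (99.3% and 97.3%). Rpn10 thus lay on opposite sides at the 2 stages.

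The 4 X-linked general genes were all occupied by H4K16ac in every list but that of males at cycle 11, which held Rpt3 and Rpt4. Rpt4, an ATPase of the base at X 6289470 to 6291245, was covered by 100%, 50.8%, 60.6%, 100% and 23.3% in females and 10.8%, 22.6%, 64.0%, 100% and 31.8% in males. Rpt3, an ATPase at X 11125101 to 11126785, was covered by 100%, 56.3%, 48.8%, 68.2% and 41.9% in females and 12.1%, 41.8%, 62.9%, 93.0% and 66.5% in males. Prosalpha4, of the alpha ring at X 16276270 to 16277587, was covered by 100%, 81.4%, 67.5%, 76.9% and 41.6% in females and 0%, 65.3%, 68.7%, 94.8% and 39.1% in males. All 3 were higher in females at cycles 11 and 12, and at cycle 14 Rpt3 and Prosalpha4 were higher in males and Rpt4 was covered in full in both sexes.

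Rpt6, an ATPase at X 21316052 to 21317663, was covered by 93.3%, 75.6%, 47.5%, 95.5% and 100% in females and 0%, 38.0%, 42.6%, 100% and 100% in males. The median male minus female difference of the 4 genes was -91.3, -22.2, 2.23, 11.2 and 4.25 percentage points from cycle 11 to 2-4 h. For the 28 autosomal general genes it was -44.3, 0, -10.7, 4.00 and 0. X-linked protein-coding genes as a whole had medians of -30.7 at cycle 11 and 0.376 at cycle 14. With 4 genes and 1 list a sex, no difference between X and autosomes was tested.

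CLAMP occupied all 4 X-linked general genes in females at cycle 11 and in both sexes at 2-4 h, 3 of them at cycle 13 in each sex, and none in the other 5 lists. The cycle 13 gap was Rpt6 in females and Rpt4 in males. At Rpt4 and Rpt6 the summits lay 27 to 62 bp from 1 end of the gene in every occupied list. At Rpt3 they lay 343 to 433 bp outside it over CG11122, and at Prosalpha4 732 to 765 bp outside it over eas. Of X-linked protein-coding genes 43.7% had CLAMP in females at cycle 11. At cycle 13 it was 33.6% in females and 34.0% in males, and at 2-4 h 66.8% and 62.4%. In the lists where 0 of these 4 had CLAMP, the shares were 16.9% and 6.28% in females at cycles 12 and 14. In males at cycles 11, 12 and 14 they were 0.956%, 4.4% and 31.8%.

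Wherever a general gene had CLAMP, it also had H4K16ac in the same sex and stage. Of protein-coding genes with CLAMP, between 60% and 90.4% also had H4K16ac over the 10 pairs of lists. Since 31 or 32 of the 32 general genes had H4K16ac in 9 of the 10 lists, the overlap was nearly fixed by that mark alone. At 2-4 h 31 of 32 carried both in each sex, where 54.9% of protein-coding genes did in females and 53.8% in males. The reverse did not hold: at cycle 12 in females 29 general genes had H4K16ac without CLAMP. These are overlaps of windows of the same genes in lists of unequal length, and they do not place both on the same molecules.

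MSL3 reached the general subunits in a broad list at cycle 13 and a more X-linked one at cycle 14. None of the 48 genes was occupied at cycle 11 (background 0.217%). At cycle 12 it was Rpt6 alone (0.144%, or 20 of 13842 genes, 19 of them X-linked). At cycle 13 it was 31 of 32 general genes and 10 paralogs (75.9%). At cycle 14 it was 10 general genes and no paralog (16.1%), and at 2-4 h it was Rpt6 and Rpn9 (4.54%). The general gene left out at cycle 13 was the X-linked Prosalpha4. Of all regions at these genes with −log10 q of at least 5, none was in the MSL3 lists of cycles 12, 13 or 2-4 h, and at cycle 14 they were at Rpt3, Rpt4 and Rpt6 (6.09% of protein-coding genes).

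At cycle 14 all 4 X-linked general genes were occupied, where 50.6% of X-linked protein-coding genes were, and 6 of 28 autosomal ones, or 21.4%, where 9.56% of autosomal protein-coding genes were. Rpt6 had a fold of 4.10, at percentile 97.5 of the list, in a region of 6234 bp that covered 85.0% of its body. Rpt4 had a fold of 3.32 (percentile 90.2) in a region of 16818 bp that covered it in full along with all or parts of 7 other genes. Rpt3 had a fold of 2.62 (percentile 79.5) in a region of 10415 bp covering 72.9% of it, and Prosalpha4 a fold of 2.37 (percentile 72.0) in a region of 924 bp that covered 70.1% and no other gene. All 4 of these regions overlapped a male H4K16ac region, and 1 of them, at Rpt4, overlapped a male CLAMP region of the same stage, which lay beyond the Rpt4 flanks.

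The autosomal genes at cycle 14 had lower folds. Prosbeta6, of the beta ring, had a fold of 2.27 and was covered in full. Rpn3 had 1.898 with 36.6% of its body covered, and Rpn1 had 1.99 with 19.9%. At Prosalpha3 (2.12), Rpn12 (1.97) and Rpt5 (2.01) the region lay in the flank and covered none of the body. At 2-4 h the region at Rpn9, a lid gene, had a fold of 3.30 and likewise lay outside it, over CG10365 and RNaseMRP:RNA.

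At least 50% of the body was covered by MSL3 in 17 general genes and 5 paralogs at cycle 13 (background 21.4%), among them all 10 base genes but 1 of 7 beta ring genes. At cycle 14 it was the 4 X-linked genes and Prosbeta6 (5.84%). At cycles 11 and 12 and at 2-4 h it was none, where the background was 0.0144%, 0% and 0.217%. No MSL3 list was analysed here for females.

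Rpt6 was the only member with MSL3 in at least 4 of the 5 lists, as were 22 protein-coding genes, or 0.159%. Its folds were 3.34, 3.72, 4.10 and 2.86 at cycles 12, 13, 14 and 2-4 h, at percentiles of 72.7, 98.2, 97.5 and 29.1. The cycle 12 region, X 21317432 to 21318204, covered 14.4% of Rpt6 at its high-coordinate end and also lay over anox, SLIRP1 and CG1801. The cycle 13 and 14 regions extended from there over most of Rpt6, and the 2-4 h region, X 21317253 to 21318271, covered the high-coordinate end again with 25.5% of the body. CLAMP lay at the low-coordinate end at cycle 13, from -194 to 63 bp relative to that end, and at 2-4 h from -312 to 181 bp. A further CLAMP region at 2-4 h, from 1638 to 2007 bp, lay under the MSL3 region of that stage. Which of these overlapping genes the MSL3 regions belong to cannot be told apart by position.

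**Figure D4:**
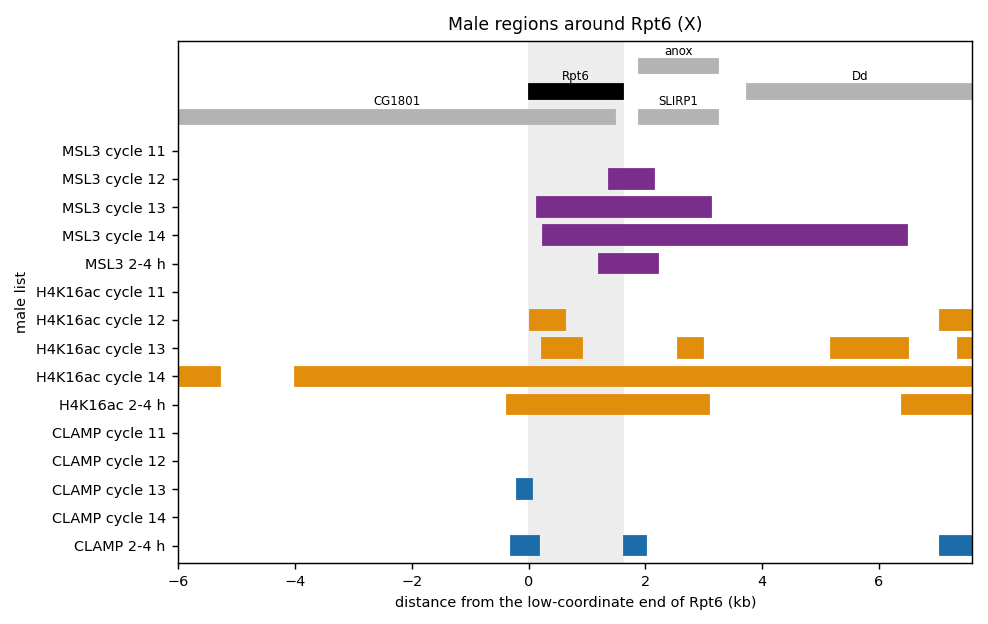
Regions of the 15 male lists around Rpt6 on X, drawn to scale as distance in kb from the low-coordinate end of the gene (horizontal axis), 1 row per list. MSL3 is purple, H4K16ac orange and CLAMP blue, the Rpt6 body is the shaded column and other gene bodies are grey bars. MSL3 regions at cycles 12 and 2-4 h lie over the high-coordinate end of Rpt6, while the CLAMP region of cycle 13 lies at the low-coordinate end.

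H4K16ac set the 16 testis paralogs apart from the general subunits in the same lists, and CLAMP did so in some of them. H4K16ac occupied 3, 2, 2, 4 and 5 of them in females and 1, 3, 3, 6 and 6 in males, with shares of 6.25% to 37.5% that lay below the background in all 10 lists. The median H4K16ac cover of the paralogs was 0% in every list. CLAMP occupied 6 paralogs in females and 5 in males at 2-4 h, and at most 4 in any earlier list. At 2-4 h these were 37.5% and 31.2%, beside 60.7% and 59.5% of protein-coding genes. At cycle 14 the order was the other way. In males 25% of paralogs had CLAMP, beside 21.9% of general genes and 31.2% of protein-coding genes. In females these shares were 6.25% (1 paralog), 3.12% and 3.92%. Between general genes and paralogs the gap at 2-4 h was 31 of 32 against 6 of 16 for CLAMP in females and 32 of 32 against 5 of 16 for H4K16ac.

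Prosbeta2R2, at 3R 5217751 to 5219528, stood out among the paralogs. It had CLAMP in 8 of 10 lists, with folds of 5.01, 5.36, 5.59, 5.01 and 7.33 in females and 4.54, 5.39 and 10.02 in males at cycles 13, 14 and 2-4 h, and H4K16ac in all 10. In 7 of these lists the CLAMP region lay at the low-coordinate end, as in males at 2-4 h (3R 5217143 to 5217785), mostly over the neighbouring gene cno. In males at cycle 14 it lay inside the body instead, at 3R 5218015 to 5218353. The H4K16ac cover of Prosbeta2R2 was 33.1%, 0%, 68.0%, 73.2% and 100% in females and 0%, 52.7%, 45.2%, 100% and 100% in males.

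The other paralogs had few regions. Rpt3R had H4K16ac in 9 lists, with 37.2% and 55.3% of the body covered in females at cycles 12 and 13 and 62.8% in males at cycle 12, and CLAMP at 2-4 h alone, over Tti1. Prosalpha4T1 and Prosalpha4T2 had their highest H4K16ac cover at 2-4 h, with 80.4% and 61.0% in females and 100% and 87.8% in males. Rpt6R had 27.5% in females and 26.7% in males at 2-4 h. Prosbeta2R1 on X was covered by 25.3% in females at cycle 11 and 40.7% in males at cycle 14. Prosbeta5R1 had CLAMP in males at cycle 14 alone, with a fold of 10.3 at percentile 94.0 of that list and no counterpart in the male 2-4 h list. Rpn12R and Prosalpha6T had CLAMP in their flanks, Rpn12R in 3 lists over Sytbeta and Prosalpha6T in both 2-4 h lists over Mabi. Rpt4R had 1 H4K16ac region, in males at 2-4 h and in its flank, and Prosbeta4R2 and Prosbeta5R2 had MSL3 at cycle 13 and nothing else. Rpn13R, Prosbeta4R1, Prosalpha1R and Prosalpha3T had no region of any antibody in body or flanks, as did 11.6% of protein-coding genes.

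Prosalpha1 was the general subunit that resembled those paralogs in CLAMP and over its body, but not in its flanks. It had no CLAMP in any list, and no region of any antibody overlapped its body, which held for 6 of 16 paralogs and 18.6% of protein-coding genes. Its H4K16ac regions in 7 lists, at percentiles of 53.2 to 88.2, and its MSL3 region at cycle 13 lay in the flank. On 2R it is followed after 1734 bp by its paralog Prosalpha1R, and the pair sat in a stretch of 6091 bp with no region in any of the 25 lists. How the authors' mapping divided reads between the 2 copies was not tested.

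Other genes of the ubiquitin and proteasome pathway carried CLAMP in most lists in which the subunits did. Of 24 listed symbols 20 were in the gene table (Ecm29, Ufd1-like, Rad23 and Rngo were not matched). CLAMP occupied 20 of 20 at 2-4 h in both sexes, beside 60.7% of protein-coding genes in females and 59.5% in males. At cycles 11, 12, 13 and 14 it occupied 15, 9, 11 and 1 in females, beside 30.9%, 10.7%, 22% and 3.92%. In males it occupied 0, 0, 14 and 6 at those cycles, beside 1.05%, 3.97%, 27.8% and 31.2%. The 6 in males at cycle 14 were 30% of the 20. At cycle 12 in females 9 of 20 were occupied, against 3 of 32 general subunits. CLAMP folds at 2-4 h were highest at cnc, the Nrf family factor known to drive proteasome subunit genes under stress, with 18.7 in females and 23.6 in males. The ubiquitin gene Ubi-p5E followed with 13.6 and 14.0, the shuttle factor Ubqn with 12.8 and 12.9, and the ubiquitin-activating enzyme Uba1 with 10.1 and 12.3. No subunit gene reached 11 in either list. H4K16ac occupied between 15 and 20 of the 20 in all lists but that of males at cycle 11, beside 48.7% to 65.2% of protein-coding genes. In that male cycle 11 list it occupied 8, or 40%, beside 14%. In males at cycle 13 it was 15 of 20, or 75%, beside 96.9% of general subunits and 55% of protein-coding genes. MSL3 at 2-4 h lay at the ubiquitin genes Ubi-p63E (5.29), Ubi-p5E (3.97) and RpL40 (3.21), or 15% of the 20, beside 4.54% of protein-coding genes. At cycle 14 MSL3 lay at 6 of 20, or 30%, beside 16.1%, with the highest fold at the X-linked Ubqn (3.41).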

How the data were processed

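Per the submitters' processing notes, Bowtie2, Picard, SAMtools 1.9 and MACS2 2.1.1 were used on build dm6, and order, settings, control library and pooling of replicates are not given in the sources used here. The authors deposited narrow peak lists for CLAMP and broad ones for H4K16ac and MSL3. In each, the authors' peak caller gave a fold enrichment (a ratio to local background, unscaled between lists) and the −log10 p and −log10 q of every region. The lowest −log10 q was 2 in narrow and 1.3 in broad lists. The deposited score equals −log10 q times 10 without its decimals, as checked on the files, and was not used further. Summit positions in the narrow lists were deposited as offsets in base pairs.

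In 9 groups 2 replicates are labelled but 1 list was used, filed under replicate 2 for male cycle 12 and 13 MSL3 and male cycle 13 CLAMP. Input, IgG and the other samples were not analysed here, and read depth is unknown.

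Genes came from a RefSeq table of Release 6 plus ISO1 MT. Overlap and cover were computed with Python 3.11.15, pandas 2.3.3 and numpy 2.4.6, and the functions were tested on simulated data. A paralog is a symbol ending in R or T, with or without a copy number. Genes named are all X-linked members and paralogs, those in most lists and those with the highest CLAMP fold at 2-4 h (8 a list). All with MSL3 outside cycle 13 and those lacking an antibody are named too. So are the 4 general genes with the largest sex difference of H4K16ac cover in each direction at cycle 14 and 2-4 h. Other genes were used as examples and chosen after their values were seen. Members, lists and rules were chosen with earlier results of these data known. The planned promoter motif, gene start and sequence comparisons were not run, since the reference used here holds neither strand nor sequence. Alternatives for flank, q, overlap and cover are given at the end.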

Additional observations from a re-analysis of the deposited data

How the results depend on the processing

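No paired analysis was possible because there was 1 list per group and no test. Counts of the 48 genes with a region stayed within 1.5 times the main count for most lists. Counting gene bodies alone gave CLAMP at 11, 2, 8 and 1 genes in females at cycles 11 to 14, at 0, 10 and 5 in males at cycles 12 to 14, MSL3 at 1 gene at 2-4 h, and 6 genes with CLAMP in at least 5 lists. Requiring 50% of the region inside gave CLAMP at 0 genes in males at cycle 12, and MSL3 at 4 genes at cycle 14 and 1 at 2-4 h. A flank of 2 kb gave MSL3 at 4 genes at 2-4 h. A −log10 q of at least 5 removed the most: H4K16ac lay at 11 genes in females at cycle 11, and at 1 and 9 in males at cycles 11 and 13, and MSL3 at 0, 0, 3 and 0 from cycle 12 to 2-4 h. With that limit, at least 50% of the body was under H4K16ac in 4 genes in females at cycle 11 and in 4 in males at cycle 13, and under MSL3 in 0 at cycle 13 and 3 at cycle 14. With at least 25% of the body, H4K16ac covered 29 and 31 genes in females at cycle 11 and 2-4 h, and 2, 26 and 32 in males at cycles 11, 13 and 2-4 h, and MSL3 covered 1 at 2-4 h. Leaving out the male cycle 14 CLAMP list, an alternative chosen after seeing the data, gave 14 genes with CLAMP in at least 5 lists in place of 15. Causes of these shifts were not tested beyond the narrower windows and shorter lists by which they are made.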
